A study of Mus musculus with 2 samples.

Results

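Genes of myoblast fusion and of the adhesion that precedes it were examined in myotubes of C2C12, an established mouse muscle line, after treatment with tumour exosomes. The genes were chosen by name, as every probe that the array files assign to Tmem8c (myomaker, now Mymk), Gm7325 (myomixer, now Mymx), Cdh15, Cdh2, Jam2, Jam3, Megf10 or Ehd2. These are 8 of the 37305 gene names on the array, and 13 of its 56605 distinct probes carry them. The KPC-exo culture received 4 µg of exosomes, small secreted vesicles, from a pancreatic cancer line of a KrasLSL-G12D/+, Trp53LSL-R172H/+, Pdx1-Cre mouse for 24 h. The MPDC-exo culture, the control, was given those of a mouse line of pancreatic ductal epithelium for the same 24 h, at a dose not given in the sources used here, so both groups carry exosomes. Each group is 1 culture of 1 cell line on 1 array, so no difference below has a replicate check and no p-value is given.

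Skeletal muscle forms when myoblasts leave the cell cycle, recognise and adhere to each other, and merge their membranes into multinucleated myotubes. Cadherins and immunoglobulin-type receptors bring the membranes together. Myomaker, a multipass membrane protein, acts in the mixing of the outer membrane leaflets, and myomixer, a micropeptide, in the opening of the fusion pore. C2C12 cells fuse when serum is lowered, and the cultures were treated as myotubes, per the labels' protocols.

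A pair of probes shows how the array reads these transcripts. The first, for myomixer, lies on chromosome 17 from 45737921 to 45737980 on the minus strand (mm9), and a 30-base stretch of it is given because it holds AATAAA, the usual polyadenylation signal, in capitals. The second, for Jam2, lies on chromosome 16 on the plus strand, and its 60 letters cover 1544 bases of genome from 84821508 to 84823051, so they cross an exon junction. Its capitals mark 19 codons of the 1 reading frame without a stop, which begins at base 2.
Gm7325: cagcaggtagtcAATAAAcgaggacagtgt
Jam2: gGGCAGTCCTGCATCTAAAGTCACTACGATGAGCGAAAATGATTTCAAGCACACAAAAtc

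Of the 13 probes, 10 were well above background, or detected, on both arrays, the condition for calling a probe measured, and every one of the 8 genes had such a probe. None of the 8 genes differed by 1.5-fold or more between the arrays. Among all 16989 measured genes 7.43% did so, of which 3.73% were higher on KPC-exo and 3.7% were lower. A 2-fold difference was likewise reached by 0 of the 8, and by 1.92% of all measured genes. Of their 10 measured probes 0 reached 1.5-fold, against 10.1% of all 24962 measured probes. The share depends on brightness. At 1.5-fold it was 1.62% in the brightest quartile of measured genes, which holds 5 of the 8, and 2.68% in the next, which holds Jam2, Jam3 and Megf10. In the 2 dimmer quartiles it was 7.94% and 17.5%. A count of 0 in 8 is therefore near what these shares give and is not a result particular to the 8 genes. Their median log2 difference, KPC-exo minus MPDC-exo, was 0.13, against 0.06 over all measured genes, and 5 of the 8 lay above that overall median.

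**Figure D1:**
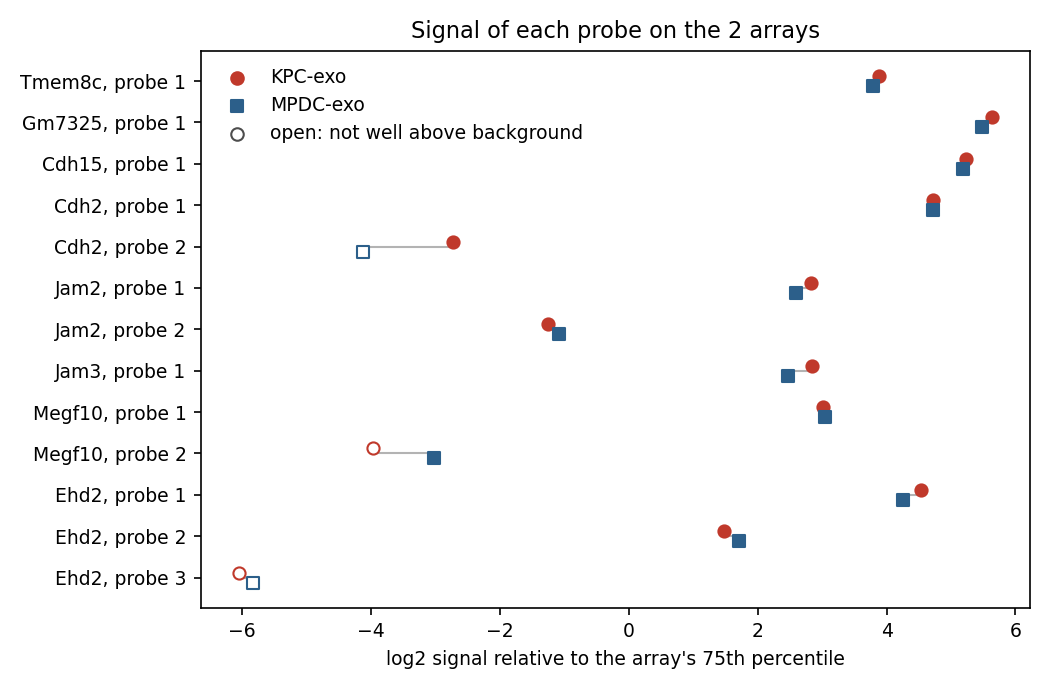
Signal of each of the 13 probes on the KPC-exo array (red circles) and the MPDC-exo array (blue squares), in log2 relative to the 75th percentile of the array. Probe 1 is the brightest of its gene, open symbols are not well above background, and brightness of different probes is not comparable. The widest pairs are the dim second probes of Cdh2 and Megf10, in opposite directions.

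Signals were compared after each array was centred on its 75th percentile, which was 639 units on the KPC-exo array and 380 units on the MPDC-exo array, a log2 ratio of 0.75. Values below are log2 signals on that centred scale unless called units. The only errors the files hold are technical. The scanner software gives each signal an error that rests on a preset multiplicative term of 10%, which comes to 0.20 for the log2 difference of each gene's brightest probe. Repeated spots of the same probe had a median SD of 0.03 on either array, over 292 such probes. The log2 difference between probes of 1 gene had a pooled SD of 0.36 over 5736 genes. Neither includes variation between cultures. By these measures 5 of the 8 differences lay within the software's error, and 1, that of Jam3, exceeded the SD between probes. This depends on the centring. Relative to the median of all measured genes, Jam3 had 0.32, short of that SD, and Jam2 had 0.18, within the software's error.

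The 2 fusogens were bright on both arrays and differed little. Tmem8c, which encodes myomaker, had a processed signal of 9439 units on the KPC-exo array and 5273 units on the MPDC-exo array before centring. After centring these were 3.89 on the KPC-exo array and 3.79 on the MPDC-exo array, a log2 difference of 0.09 with a software error of 0.20. Its 1 probe lies on chromosome 2 from 26917594 to 26917653 on the minus strand. Most of the gap in units is thus the gap between the arrays as a whole, and 67.3% of the genes in the same brightness quartile differed at least as much in either direction. Gm7325, which encodes myomixer, had 31783 units on the KPC-exo array and 16921 units on the MPDC-exo array. On the centred scale it had 5.64 on the KPC-exo array and 5.48 on the MPDC-exo array, a log2 difference of 0.16 at its 1 probe. Both values are higher on the KPC-exo array by less than the software's error, and 44.7% of the genes in the quartile of Gm7325 differed at least as much.

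Muscle adhesion through cadherins was measured at Cdh15 and Cdh2. Cdh15 encodes M-cadherin, a calcium-dependent adhesion protein of myogenic cells. It had 24011 units on the KPC-exo array and 13811 units on the MPDC-exo array, or 5.23 on KPC-exo and 5.18 on MPDC-exo after centring, a log2 difference of 0.05. Its probe lies on chromosome 8 from 125391031 to 125391090 on the plus strand. Cdh2 encodes N-cadherin, a classical cadherin shared by muscle and nerve cells. Its brighter probe had 16774 units on the KPC-exo array and 10018 units on the MPDC-exo array. Centred, both arrays gave 4.72, so that the log2 difference was -0.0039 and the smallest of the 8. A second Cdh2 probe, assigned to another transcript of the gene, was dim. It was detected on the KPC-exo array at -2.73 and not on the MPDC-exo array at -4.12. Set against the lowest MPDC-exo signal that still counted as detected, the KPC-exo signal was at least 1.84-fold higher, while the bright probe showed no such gap. The bound rests on 1 dim spot per array and makes no allowance for spot error.

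Of the 2 junctional adhesion molecules, Jam3 had the widest difference of the 8 genes, and Jam2 came after Ehd2; both had the same sign at the brightest probe. Jam2 and Jam3 encode immunoglobulin-type receptors that bind each other between cells, and in zebrafish their counterparts are needed for the fusion of fast muscle precursors. Jam3 had 4594 units on the KPC-exo array and 2107 units on the MPDC-exo array. Centred, it had 2.85 on the KPC-exo array and 2.47 on the MPDC-exo array, a log2 difference of 0.38 with a software error of 0.20, or 1.30-fold. Its 1 probe lies on chromosome 9 from 26905298 to 26905357 on the minus strand. Jam3 thus lay higher on the KPC-exo array, short of 1.5-fold, and 12.6% of the genes in its brightness quartile differed at least as much in either direction.

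Jam2 depended on the probe. The junction-crossing probe printed above had 4548 units on the KPC-exo array and 2301 units on the MPDC-exo array, or 2.83 on the KPC-exo array and 2.60 on the MPDC-exo array after centring. Its log2 difference was 0.24, or 1.18-fold, with a software error of 0.20. The other Jam2 probe, designed on a cDNA clone, lies on chromosome 16 from 84811166 to 84811225 and was dimmer. It had -1.25 on the KPC-exo array and -1.09 on the MPDC-exo array, a log2 difference of -0.17. The dimmer spot carried a background flag, set by the scanner software where the local background is uneven or outlying, on the KPC-exo array. The 2 probes had opposite signs, and their mean difference was 0.03.

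**Figure D2:**
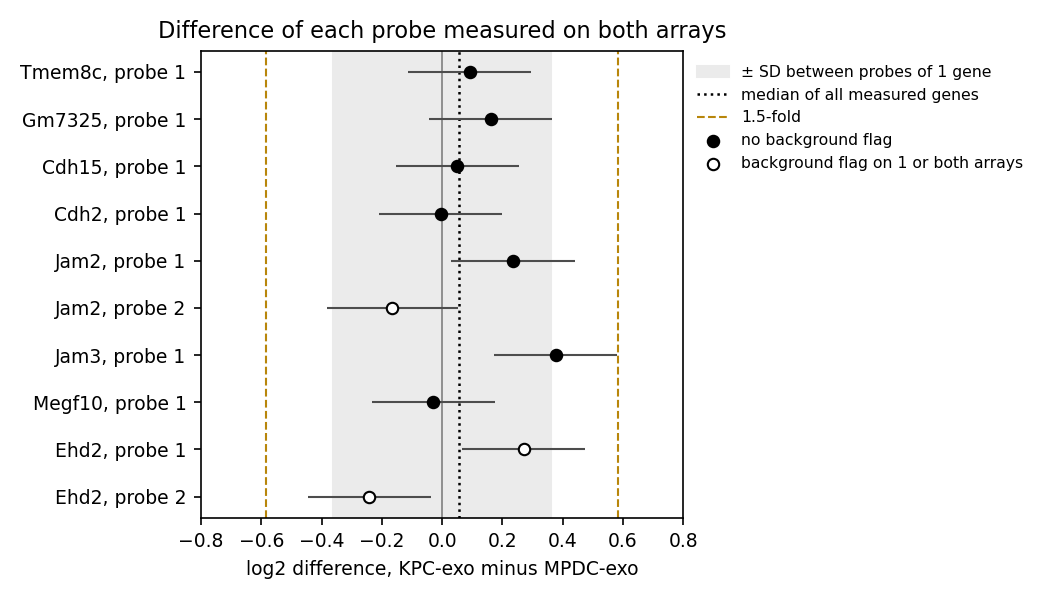
Log2 difference, KPC-exo minus MPDC-exo, of the 10 probes measured on both arrays, with bars of ± the scanner software's error; the dashed lines mark 1.5-fold and the shaded band ± 0.36, the SD between probes of 1 gene. No probe reaches 1.5-fold, and the probe pairs of Jam2 and Ehd2 lie on either side of 0.

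Megf10 encodes a receptor with EGF-like repeats that is known in satellite cells, the stem cells of muscle, where it bears on the balance of proliferation and differentiation. Its brighter probe had 5147 units on the KPC-exo array and 3129 units on the MPDC-exo array. After centring it had 3.01 on the KPC-exo array and 3.04 on the MPDC-exo array, a log2 difference of -0.03. The second probe was dim and was detected on the MPDC-exo array, at -3.02, but not on the KPC-exo array, at -3.97. By the bound the KPC-exo signal was at least 1.67-fold lower, which is the reverse of the dim Cdh2 probe. Dim probes of these genes therefore gave gaps of both signs, while the bright probe of each lay within the software's error of 0. Cdh2 and Megf10 both lie on chromosome 18.

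Ehd2 encodes a membrane-bound ATPase that sits at the neck of caveolae and binds myoferlin, a membrane protein of fusing myoblasts. Its brightest probe had 14742 units on the KPC-exo array and 7278 units on the MPDC-exo array, at chromosome 7 from 16532351 to 16532410 on the minus strand. Centred, it had 4.53 on the KPC-exo array and 4.26 on the MPDC-exo array, a log2 difference of 0.27, or 1.21-fold, with a software error of 0.20. The second probe, on chromosome 7 from 16535288 to 16535347, had 1.47 on the KPC-exo array and 1.71 on the MPDC-exo array, a log2 difference of -0.24. The 2 probes again had opposite signs, and their mean difference was 0.01. The first carried a background flag on both arrays and the second on the KPC-exo array, so Ehd2 had no value once such spots were left out (a setting added after the data were seen). A further probe that the files name Ehd2 has its listed position on chromosome 9, from 100705865 to 100705924, whereas RefSeq places Ehd2 on chromosome 7. It was detected on neither array, at -6.05 on the KPC-exo array and -5.83 on the MPDC-exo array.

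Ordered by log2 difference, the 8 genes ran from Jam3 at 0.38 through Ehd2 at 0.27, Jam2 at 0.24, Gm7325 at 0.16, Tmem8c at 0.09, Cdh15 at 0.05 and Cdh2 at -0.0039 to Megf10 at -0.03. Neighbours in this order lay closer together than the software's error of 0.20 for each. Levels of different genes are not ordered, since the brightness of a probe depends on its sequence. Over 2 arrays no likeness of pattern between genes can be measured.

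**Figure D3:**
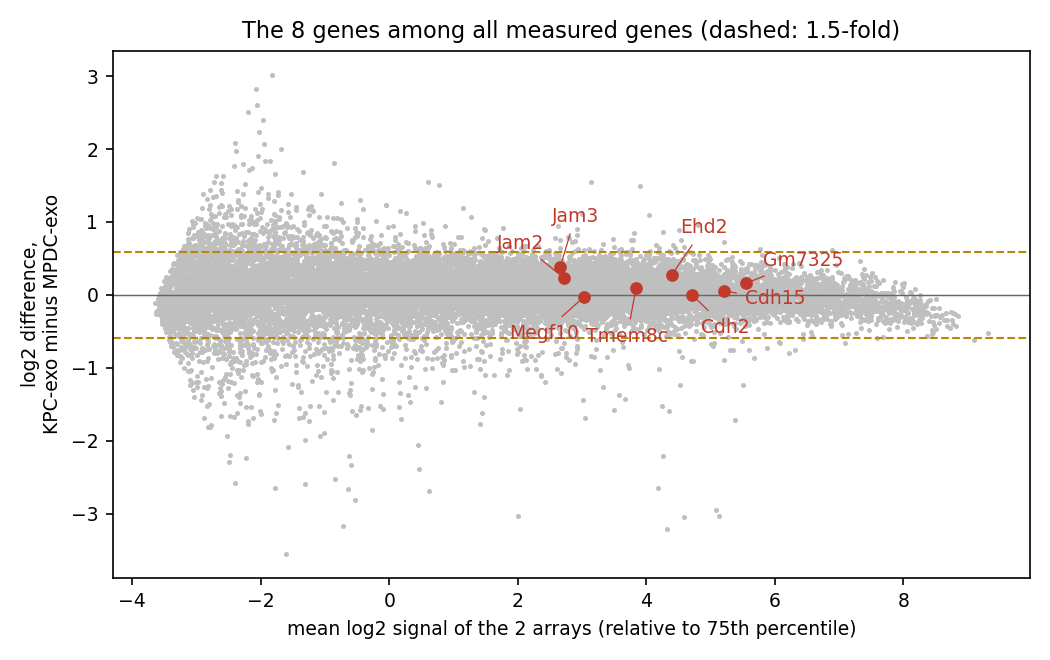
Log2 difference, KPC-exo minus MPDC-exo, against mean log2 signal for all 16989 measured genes (grey), each at its brightest probe, with the 8 fusion and adhesion genes in red. The 8 lie at medium to high signal, where the cloud is narrow, and inside the dashed lines at 1.5-fold.

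The relatives of these genes by family were detected in part, and a probe that was not detected does not show that its gene is silent. Of 18 relatives, 10 were measured and 0 reached 1.5-fold, with a median log2 difference of 0.09. Among cadherins, Cdh11 and Cdh13 were measured, with log2 differences of -0.06 and 0.24. Cdh1, the epithelial cadherin, Cdh5, the endothelial cadherin, and Cdh3, Cdh4 and Cdh6 were detected on neither array. F11r, which encodes junctional adhesion molecule A, had 3.22 on the KPC-exo array and 3.18 on the MPDC-exo array, a log2 difference of 0.04. Ehd1, a recycling protein that also takes part in myoblast fusion, had 5.44 on the KPC-exo array and 5.75 on the MPDC-exo array. Its log2 difference of -0.31 had the opposite sign to that of the brightest Ehd2 probe, and its 2 probes ranged from -0.33 to -0.31. Ehd3 and Ehd4 had log2 differences of 0.06 and -0.08. Among relatives of Megf10, Pear1 had 0.51 at a dim probe and Megf6 had 0.36. Megf11 was detected on the KPC-exo array only, at least 2.50-fold higher there.

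Other genes of fusion and adhesion were counted in lists by role, of which the family relatives are 1. Over all lists, 70 of 87 genes were measured and 2 reached 1.5-fold, 1 in each direction, a share of 2.86% against 7.43% of all measured genes. Most of the 70 lay in the 2 brighter quartiles, where 1.62% and 2.68% of measured genes reached 1.5-fold. The lower share is therefore not read as a trait of the listed genes. Their median log2 difference was 0.01, against 0.06 over all measured genes. Of the 17 others, 13 were detected on neither array and 4 only on the KPC-exo array. Over all genes, 1277 were above background on the KPC-exo array only and 616 on the MPDC-exo array only, so the direction of these 4 is not particular to the lists.

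Cadherin partners had a median of -0.04 over 8 measured genes, with 0 at 1.5-fold. Cdon, a co-receptor that associates with N-cadherin in myoblasts, had 4.79 on the KPC-exo array and 5.16 on the MPDC-exo array, a log2 difference of -0.36, and its 3 probes ranged from -0.66 to -0.36. Jup, or plakoglobin, had -0.36, with probes from -0.71 to 0.06. Neo1, a netrin receptor, had -0.26, with another probe at 0.03. Ctnnb1, which encodes beta-catenin, had 0.18 at its brightest probe, but its 3 probes ranged from -0.81 to 0.37. Ctnna1, or alpha-catenin, had 0.01, with another probe at 0.99. Ctnnd1, or p120 catenin, had -0.08, with another probe at 0.64. Ntn3, a netrin, was detected on the KPC-exo array only, at least 1.30-fold higher there.

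Immunoglobulin adhesion receptors had a median of -0.01 over 7 measured genes, with 0 at 1.5-fold. Ncam1, the neural cell adhesion molecule carried by myotubes, had 4.68 on the KPC-exo array and 4.61 on the MPDC-exo array, a log2 difference of 0.07. Vcam1, which binds integrin alpha 4 between muscle cells, had -0.01. The widest in this list were Kirrel3, a nephrin-like receptor, at 0.45, Mcam at -0.41 and Cadm1 at -0.27. The probes of Kirrel3 and of Cadm1 differed in sign, ranging from -0.21 to 0.45 and from -0.27 to 0.11.

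**Figure D4:**
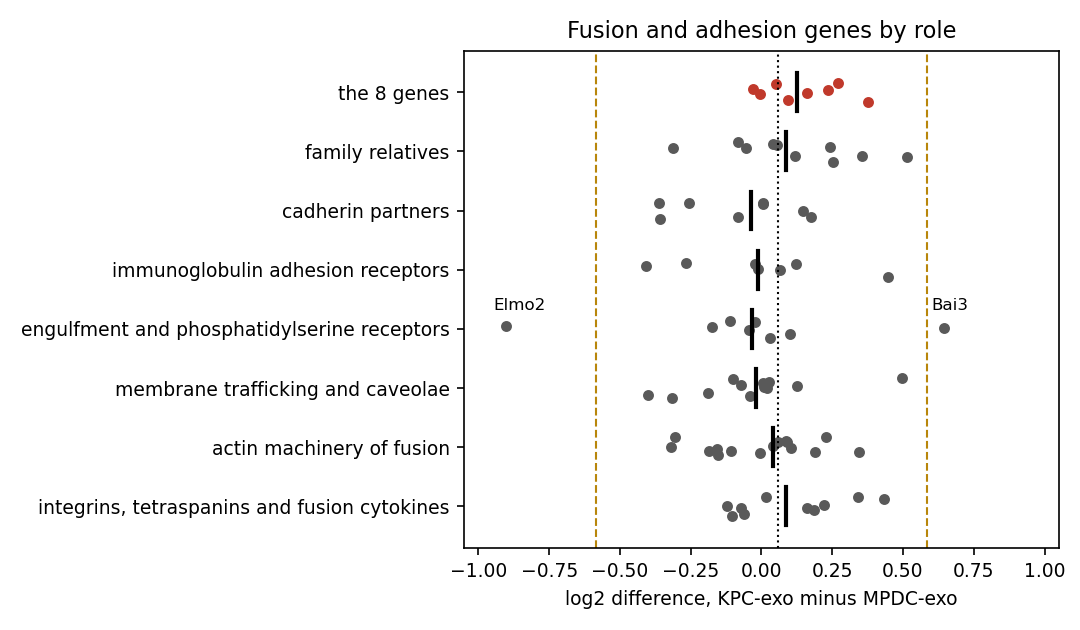
Log2 difference, KPC-exo minus MPDC-exo, of the measured genes of each list at their brightest probe (points, spread vertically for legibility), with list medians as bars, the median of all measured genes as a dotted line and 1.5-fold as dashed lines. Only Bai3 and Elmo2 lie beyond 1.5-fold among the genes plotted.

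The 2 genes past 1.5-fold were both in the list of engulfment and phosphatidylserine receptors, whose median was -0.03 over 8 measured genes. Bai3 (now Adgrb3), an adhesion receptor that signals through Elmo and Dock1 in mouse myoblast fusion, had 0.93 on the KPC-exo array and 0.28 on the MPDC-exo array. This was a log2 difference of 0.64, or 1.56-fold higher on the KPC-exo array, at the 1 measured probe of its 4. It fell short of 1.5-fold with cyclic loess normalization, at 0.56, and lay in the quartile where 7.94% of measured genes reached 1.5-fold. Elmo2, an adaptor of the Rac exchange factors of the Dock family, had -2.87 on the KPC-exo array and -1.96 on the MPDC-exo array. It was 1.87-fold lower on the KPC-exo array, a log2 difference of -0.90, at its only probe. That probe was in the dimmest quartile, where 17.5% of measured genes reached 1.5-fold in either direction. Dock5 had -0.18, with probes from -0.18 to 0.17. Dock1, which acts with Elmo on Rac, had -0.11, with probes from -0.82 to 0.10.

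Membrane trafficking and caveolae genes had a median of -0.02 over 12 measured genes, with 0 at 1.5-fold. Cav3, the muscle caveolin, was the widest, with 4.30 on the KPC-exo array and 3.80 on the MPDC-exo array, a log2 difference of 0.50 at 1 probe. Cav1, a widely expressed caveolin, had 0.62 on the KPC-exo array and 1.02 on the MPDC-exo array, a log2 difference of -0.40. The 2 caveolins thus differed in opposite directions, each short of 1.5-fold. Myof, or myoferlin, the partner of Ehd2, had 0.01. Arhgap26 (GRAF1) was detected on the KPC-exo array only. It was at least 4.92-fold higher there, at -1.31 on the KPC-exo array and -4.78 on the MPDC-exo array, at 1 of 6 probes, a spot with background flags on the KPC-exo array. Arhgap10 (GRAF2), measured at 1 probe, went the other way. It had 3.11 on the KPC-exo array and 3.42 on the MPDC-exo array, a log2 difference of -0.32.

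The actin machinery of fusion had a median of 0.04 over 15 measured genes, all of that list, with 0 at 1.5-fold. Its widest members were Actr3, a subunit of the Arp2/3 complex that branches actin, at 0.34, the GTPase Arf6 at -0.32 and the filopodial myosin Myo10 at -0.31. The 3 probes of Myo10 differed in sign, ranging from -0.45 to 0.30. Integrins, tetraspanins and fusion cytokines had a median of 0.09 over 10 measured genes, with 0 at 1.5-fold. Cd53, a tetraspanin mainly of blood cells, had 0.43, Adam12, a metalloprotease of fusing myoblasts, had 0.34, and Tgfbr1, a TGF-beta receptor, had 0.22. The probes of Cd53 and Adam12 were in the dimmest quartile. Itga4, the integrin partner of Vcam1, was above background on the KPC-exo array only, with no fold above 1 by the bound.

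Probes of 1 gene often disagreed across these lists. Of the 41 genes with at least 2 measured probes, 25, or 61.0%, had probes of both signs, against 53.8% of the 5736 such genes on the array. In 12 of the 41, or 29.3%, some probe passed 1.5-fold, against 21.8% of the 5736. In 0 of the 41 did every measured probe pass it in one direction, against 0.314% of the 5736.

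Markers described the state of the cultures in the same arrays. Myotube markers were measured in 10 of 10 cases, with a median log2 difference of 0.02 and a summed linear signal of 542 on the KPC-exo array and 505 on the MPDC-exo array, in multiples of each array's 75th percentile. The markers lay on both sides of 0, with 5 above and 5 below. The sum weighs the brightest probe most, that of Mylpf. It had 7.67 on the KPC-exo array and 7.43 on the MPDC-exo array, while another Mylpf probe had a log2 difference of -0.17. Mb, myoglobin, had 0.60, or 1.52-fold, and was the 1 of 10 past 1.5-fold, which it only just cleared. That threshold was passed by 7.43% of all measured genes, and by 1.62% of those in the brightest quartile, where Mb lies. Tnnt3, a fast troponin, had 0.34, Ckm, the muscle creatine kinase, had -0.43, and Myog, the transcription factor of early differentiation, had -0.16. Of the markers of undifferentiated myoblasts, 5 of 7 were measured, with a median of 0.10, 3 of 5 above 0, and sums of 33.2 on the KPC-exo array and 34.4 on the MPDC-exo array. The median and the sum differ in direction, and the widest of the 5 was Sdc4, a syndecan, at -0.45. Pax3 and Myf5 were detected on neither array. Cycling-cell markers were measured in 7 of 7 cases, with a median of -0.33 and sums of 22.8 on the KPC-exo array and 26.5 on the MPDC-exo array. Of the 7, 5 lay below 0 and 2, Cdk1 and Aurkb, above, and 0 reached 1.5-fold. The probes of Top2a ranged from -0.69 to 0.09, those of Aurkb from -0.42 to 0.14 and those of Ccnb1 from -0.69 to -0.18. The part of these marker differences in the values of the 8 genes was not tested. In such bulk RNA fewer cells of a type and less RNA per cell cannot be told apart.

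Across 12 ways of processing the arrays that keep the bulk of the signal centred, the reported one included, 0 of the 8 genes reached 1.5-fold. The difference of Jam3 ranged from 0.31 to 0.49, that of Gm7325 from 0.11 to 0.24 and that of Tmem8c from 0.04 to 0.15. All 3 lay above the median of all measured genes in 12 of 12, Tmem8c by as little as 0.006. Not all of the 12 could have differed on this. Settings that only change the centring keep each distance to that median. Averaging probes cannot change the differences of these 3 genes, which have 1 probe each. Dropping or tightening the filter on dim probes left the differences of all 8 genes as reported, so it could not alter the count of 0. Jam2 ranged from 0.03 to 0.34, and Ehd2, which had a value in 11 of the 12, from 0.01 to 0.36; the lowest value of both is the mean over probes. Cdh15, Cdh2 and Megf10 took both signs, with ranges from -0.01 to 0.11, from -0.06 to 0.07 and from -0.09 to 0.02. Cdh15 lay above 0 in 10 of 12, and Cdh2 and Megf10 each in 1 of 12, with normexp background correction.

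**Figure D5:**
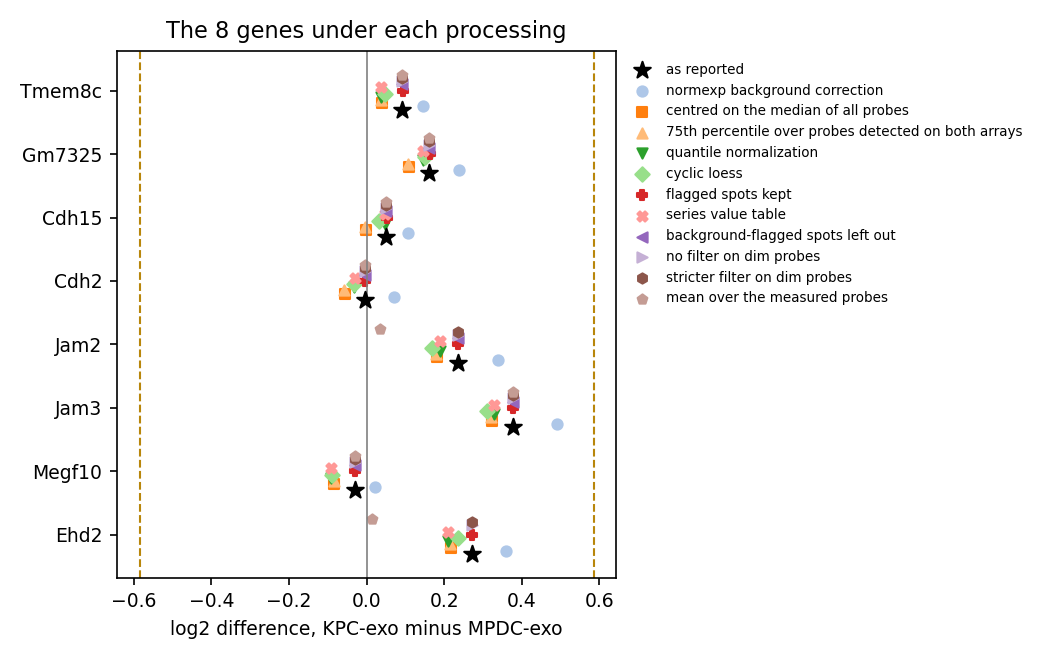
Log2 difference, KPC-exo minus MPDC-exo, of each of the 8 genes under 12 ways of processing, with the values as reported drawn as stars and 1.5-fold as dashed lines. No symbol reaches 1.5-fold, and Jam2 and Ehd2 move closest to 0 when their probes are averaged.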

How the data were processed

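Total RNA of 2 C2C12 cultures was hybridised to 2 Agilent arrays of 60-base probes, 1 per group, grouped by the labelled treatment. Per the file headers, Agilent Feature Extraction 10.7.1.1 read the spots with local background correction off, removed spatial trends and replaced small values by surrogates. The deposited spot intensity is linear and not normalized between arrays. The deposited probe positions are those of mm9. The deposited series table holds log2 values, made by steps not given in the sources used here. Its columns share a median of 4.88 and correlate at 1.00 with each array's log2 signal, and it served as an alternative. For the 8 genes its log2 differences were close to those of quantile normalization, as for Tmem8c at 0.04 and Jam3 at 0.33 in both. These settings are therefore not separate checks.

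Spots flagged as non-uniform or outlying were left out, repeated spots averaged in log2, and each array's 75th percentile subtracted. A gene is its brightest probe, measured where well above background on both arrays. This held for 47.6% of probes on the KPC-exo array and 45.9% on the MPDC-exo array, and 0 spots were saturated. A probe above background on 1 array received a bound. Python 3.11.15, numpy 2.4.6, pandas 2.3.3, R 4.3.3 and limma 3.58.1 were used, and the counting was tested on simulated data. RefSeq names (GRCm38.p6) matched 32994 probes by accession. Probe sequences come from the array files. Every probe of the 8 genes is reported; of other lists, those past 1.5-fold, up to 3 with the widest difference and some listed partners are named. Cdh11, Cdh13, Ehd3, Dock1, the genes with a bound and the single markers were named after their values were seen. The genes and lists were chosen with earlier results of these data known. The number of arrays limits the precision.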

Additional observations from a re-analysis of the deposited data

How the results depend on the processing

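No paired analysis was possible because each group holds 1 array, and no array could be left out. Alternatives comprised normexp (offset 50), median centring, the 75th percentile over probes detected on both arrays, quantile and cyclic loess normalization, keeping outlier spots, the series value table, dropping or tightening the filter on dim probes, averaging probes and a 2-fold threshold. Leaving out background-flagged spots and centring on 7 spike-in probes were chosen after seeing the data. Centring on the spike-ins added 1.08 to every log2 difference. The median of the 8 genes was then 1.21, that of their measured probes 1.15, that of all measured genes 1.14, and all 8 fusion and adhesion genes and 69 listed genes passed 1.5-fold, while Elmo2 turned to 0.17. Relative to all genes nothing moved by construction, so each difference is one against the bulk of the array. The count of 2 listed genes past 1.5-fold was 1 with cyclic loess, where Bai3 had 0.56, and 1 with the stricter filter, which leaves out Elmo2. It was 3 with outlier spots kept, where 2 were lower, 8 with no filter, which admits dim probes, and 0 at 2-fold. The count of 0 among the 8 genes held in every alternative but the spike-in centring. Not every alternative could change it. The filters on dim probes left all 8 differences as they were, and 0 at 1.5-fold fixes 0 at 2-fold. Precision is limited by 1 array per group and, at dim probes, by signal near background.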

Other observations

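Markers of cells other than muscle were measured in part. Of 7 fibroblast markers, 6 were measured, with a median log2 difference of 0.01. Their summed signals were 283 on the KPC-exo array and 293 on the MPDC-exo array, in multiples of the 75th percentile. Of the 6, 3 lay above 0 and 3 below, from Dpt at -0.30 to Dcn at 0.37, and Thy1 was detected on neither array. The sum weighs the brightest probe most, that of Col3a1. It had 7.30 on the KPC-exo array and 7.59 on the MPDC-exo array, while the probes of Col3a1 ranged from -0.46 to 0.81. Of 8 markers of ductal epithelium, the cell type of the control exosomes, 1 was measured. It was the keratin gene Krt19, with a dim signal of -2.34 on the KPC-exo array and -2.47 on the MPDC-exo array, and the other 7, Epcam and Cdh1 among them, were detected on neither array. Of 6 endothelial markers 1 was measured, Kdr, with a log2 difference of -0.07, and Pecam1 was above background on the KPC-exo array only. Of 6 macrophage markers 4 were measured, with a median log2 difference of 0.09, 2 of 4 above 0, and summed signals of 10.8 on the KPC-exo array and 11.4 on the MPDC-exo array. Among them Csf1r was past 1.5-fold lower with a log2 difference of -0.87, and -0.33 at its other probe, while Cd68 was past 1.5-fold higher with 0.63 at 1 of 3 probes. Cd68 lay in the dimmest quartile, where 17.5% of measured genes passed 1.5-fold, and Csf1r in the next, where 7.94% did. Adgre1 and Mrc1 were detected on neither array.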
